A study of Mus musculus with 18 samples.

Results

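Regulatory T cells of the mouse were examined here for 47 genes that act in mitosis, spindle assembly and chromosome segregation. The list was taken as given and had been chosen with earlier results of these data known. Shares of members set beside those of all genes are therefore descriptive. A gene entered if the table of expected counts held it with at least 10 counts in 3 libraries. All 47 listed genes were found among the 23420 genes of the table, all passed that rule, and all were among the 10630 genes tested. Resting libraries alone would have admitted 35 of them, and the other 12 passed through effector libraries only. No listed gene was dropped for low counts, so the counts of members below cover the whole list.

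In mitosis the kinase Cdk1, bound to A- and B-type cyclins, drives the cell into division, condensin folds the chromosomes, and microtubules attach to each centromere through the kinetochore. The spindle checkpoint holds the cell until every kinetochore is attached. The anaphase-promoting complex then marks cyclins and securin for destruction, sister chromatids part and the cell is cut apart at the midzone of the spindle. Transcripts of these genes are made mainly in the G2 and M phases, so in lymphoid tissue they are used as markers of dividing cells. Resting regulatory T cells divide rarely, whereas activated effector regulatory T cells turn over faster.

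The study sequenced RNA of sorted regulatory T cells in 2 states, resting and effector, from 3 genotypes labelled FCre x C1+/+, FCre x C1fl/+ and FCre x C1fl/fl, written below as +/+, fl/+ and fl/fl. C1 is the labels' short name for the floxed gene. Every group carried FCre, the controls included, and in the published study this is a Cre recombinase expressed from Foxp3, the lineage gene of regulatory T cells. Each of the 6 groups had 3 libraries, numbered 1 to 3 by a label that calls the number a batch, and values below are given in that order. No source used here states the age or sex of the mice or how the gates were set. Nor do the labels say whether libraries of a group came from separate mice, so p-values measure the spread between these samples, which may be technical. The measurements are bulk values, in which fewer dividing cells and less RNA per dividing cell cannot be told apart.

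The libraries held between 1658073 and 5756903 expected counts each (median 3154386.5), and levels below are counts scaled to the TMM library size, in CPM. Foxp3 was at 210.8 to 478 CPM in all 18 libraries. The summed CPM of 8 markers of T cells and regulatory T cells, Foxp3 among them, was 3885 ± 311 (SD, n = 3) in +/+ effector cells. It was 3609 ± 342 in fl/+ and 2995 ± 354 in fl/fl effector cells. Resting means were 2953, 2834 and 2745 CPM in the same order. Between fl/fl and +/+ effector cells 2 of the 8 were lower (edgeR, adjusted p under 0.05), against 175 of all 10630 genes. Their part in the results was not tested.

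Before the comparisons, some libraries stand apart from their group. Replicate 3 of the +/+ effector group was the highest of its group in 43 of the 47 members, and in 35 it was at least 1.5 times the higher of replicates 1 and 2. It lay above the lowest fl/fl effector library in 30 members. Replicate 1 of the fl/fl resting group was the highest of its group in 37 members. Among effector libraries, replicate 1 was the lowest of its group in 41 members in fl/+ and in 38 in fl/fl. Calls in +/+ that are lost without +/+ effector replicate 3 are given with their value without it.

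For 39 members RefSeq promoter windows (assembly GRCm38.p6, 250 bases before the start to 50 after) were at hand. Ccna2, Aurkb, Incenp, Spc24, Kif20a, Tpx2, Stmn1 and Smc4 have none in the table used. The windows were searched for the cell cycle homology region, a short element bound by the DREAM and MuvB complexes that time genes of G2 and M phase, spelled TTTGAA or TTCGAA and read on both strands. They were also searched for the CCAAT box, bound by NF-Y, spelled CCAAT and read on both strands. Matches of the 2 motifs may share letters at their ends, and each was counted on its own. Stretches of 6 members are printed 5′ to 3′ on the gene's strand, from 120 bases before the start to 30 after, because they show the layout that recurs and the exceptions to it. Capitals mark motif matches: for the first motif these are TTTGAA, its reverse complement TTCAAA and the palindrome TTCGAA, and for the second CCAAT and its reverse complement ATTGG. With all 18 libraries, Ccnb2, Cdk1 and Racgap1 rose from resting to effector cells in every genotype. Of these, only Racgap1 kept its +/+ call without +/+ effector replicate 3. Ncapg, Ncaph and Birc5 were chosen because they were higher in fl/fl than in +/+ effector cells.
Ccnb2 (chr9:70421525-70421674, minus strand): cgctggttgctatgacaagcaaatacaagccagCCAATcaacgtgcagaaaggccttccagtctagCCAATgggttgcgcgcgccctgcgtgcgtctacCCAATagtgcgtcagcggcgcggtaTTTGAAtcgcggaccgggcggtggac
Cdk1 (chr10:69352883-69353032, minus strand): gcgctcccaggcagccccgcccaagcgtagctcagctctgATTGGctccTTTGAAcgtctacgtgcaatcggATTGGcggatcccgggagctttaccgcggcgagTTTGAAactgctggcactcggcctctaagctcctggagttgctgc
Racgap1 (chr15:99651627-99651776, minus strand): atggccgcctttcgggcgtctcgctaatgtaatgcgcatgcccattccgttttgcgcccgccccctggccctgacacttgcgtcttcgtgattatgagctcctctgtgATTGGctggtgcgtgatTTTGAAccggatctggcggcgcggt
Ncapg (chr5:45669805-45669954, plus strand): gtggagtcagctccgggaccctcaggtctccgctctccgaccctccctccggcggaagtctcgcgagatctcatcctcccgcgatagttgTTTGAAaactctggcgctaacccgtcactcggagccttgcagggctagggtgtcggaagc
Ncaph (chr2:127133925-127134074, minus strand): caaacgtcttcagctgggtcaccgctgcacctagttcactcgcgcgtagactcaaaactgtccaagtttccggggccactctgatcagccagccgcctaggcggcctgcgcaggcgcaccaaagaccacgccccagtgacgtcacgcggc
Birc5 (chr11:117849117-117849266, plus strand): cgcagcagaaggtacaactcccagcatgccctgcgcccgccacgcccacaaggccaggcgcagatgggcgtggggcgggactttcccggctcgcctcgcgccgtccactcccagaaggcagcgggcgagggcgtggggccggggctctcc

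In Ccnb2 several CCAAT boxes precede a homology region just after the start, and Cdk1 and Racgap1 carry both motifs too. Ncapg shows the homology region upstream of the start with no CCAAT box in the stretch. Ncaph and Birc5 hold neither motif in the stretch. Over the whole windows, 31 of 39 members (79.5%) held the cell cycle homology region, against 19.4% of all 27025 windows searched. Within 100 bases before to 50 after the start the shares were 76.9% of members and 8.68% of all windows. The CCAAT box was in 76.9% of member windows and 37.9% of all. Both motifs together were in 69.2% of members and 7.7% of all. Windows of Nuf2, Nusap1, Ncaph, Cenpe, Melk, Birc5, Cks2 and Ccnb1 held no homology region in these spellings. A match describes letters in the window and not a bound site, and no member was chosen by it.

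**Figure D1:**
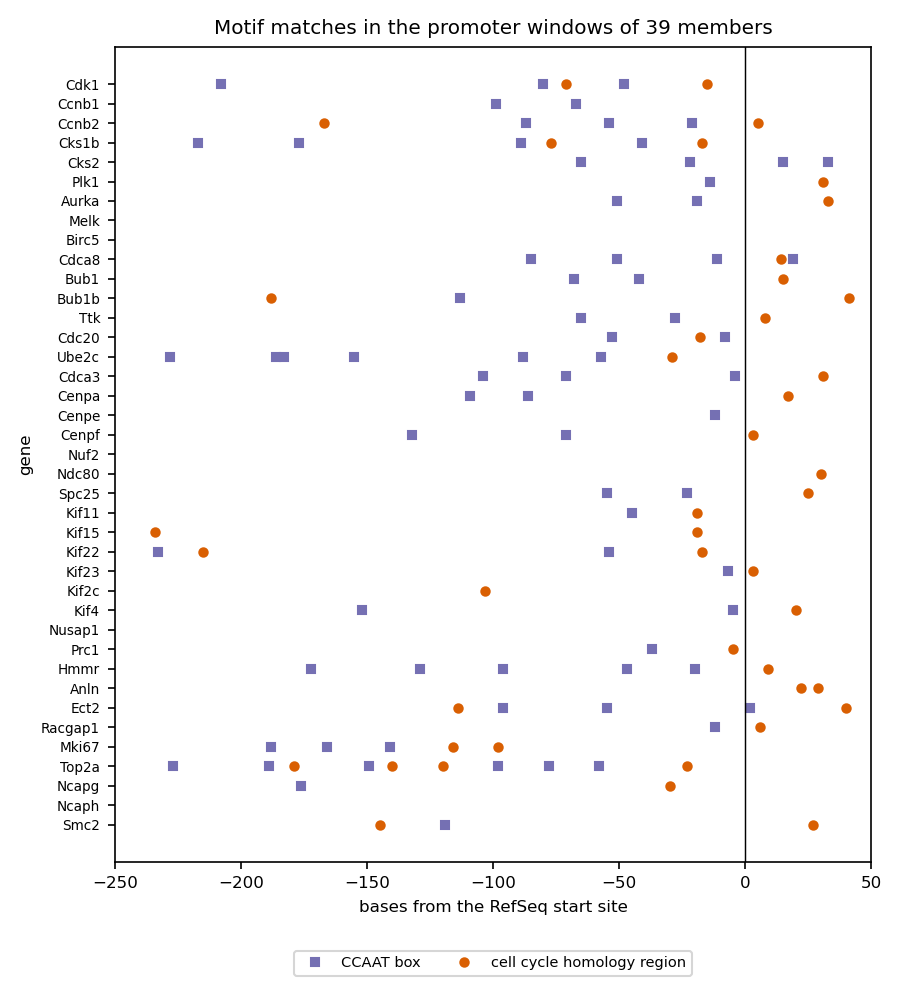
Positions of motif matches in the promoter windows of the 39 members, with distance from the RefSeq start site in bases on the x axis and genes on the y axis. Orange circles are the cell cycle homology region and violet squares the CCAAT box, and homology regions gather near the start, where 76.9% of members hold one.

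Levels differed widely among members. On the per-length scale of FPKM, averaged over 18 libraries, Smc4 led with 163, followed by Stmn1 with 35.7, Cenpa with 23.9 and Cks1b with 23.6. Smc4 encodes the core ATPase shared by both condensins. At the other end were Ttk with 0.831, Cenpf with 0.673 and Anln with 0.567 FPKM. Smc4 alone took 26.9% to 77.0% of the members' summed CPM, so sums are given without it.

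The summed CPM of the other 46 members had a higher mean in effector than in resting cells of each genotype. Resting sums were 325 ± 50.5 CPM (SD, n = 3) in +/+, 311 ± 43.4 in fl/+ and 299 ± 117 in fl/fl. Effector sums were 735 ± 337 in +/+, 1015 ± 195 in fl/+ and 1392 ± 213 in fl/fl. The effector means exceeded the resting means 2.26 times in +/+, 3.26 times in fl/+ and 4.65 times in fl/fl. Library by library the effector sums were 520.3, 561 and 1123 CPM in +/+, 793, 1163 and 1088 in fl/+ and 1145, 1517 and 1512 in fl/fl. No effector library overlapped the resting libraries of its genotype. Among effector libraries the first and second +/+ libraries were lowest, and the third lay within the fl/+ range.

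**Figure D2:**
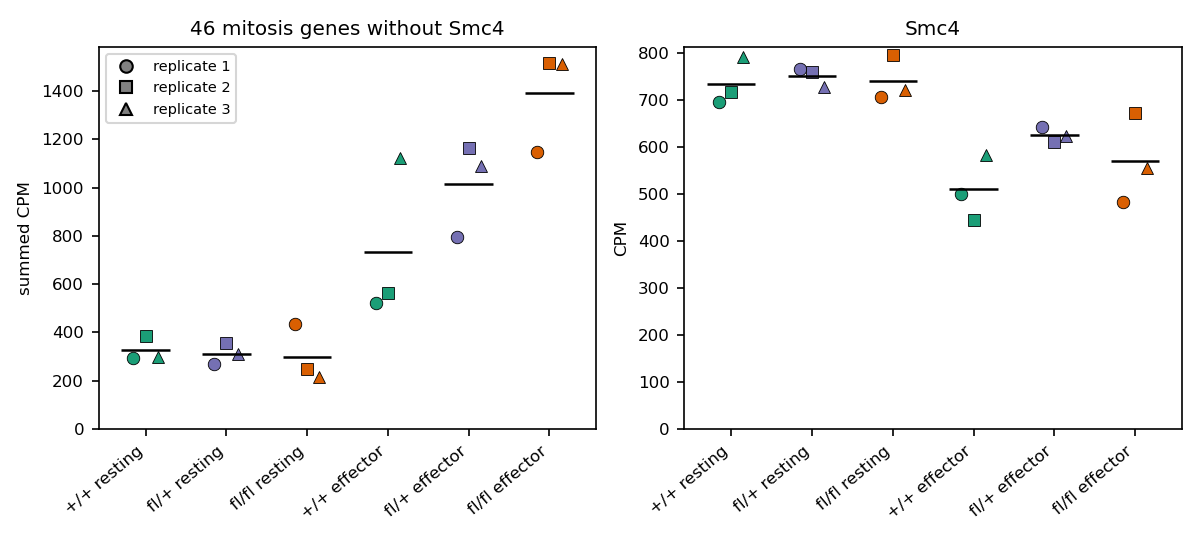
Summed CPM of 46 members without Smc4 (left) and CPM of Smc4 (right) on linear axes for the 18 libraries, by group on the x axis. Symbols mark the replicate, colours the genotype and black lines the mean; effector sums reach 1517 CPM in fl/fl, while Smc4 runs from 445 to 795 CPM and is lower in effector cells.

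Effector cells were compared with resting cells in each genotype, which asks how far the mitotic programme differs between the states and whether that holds in fl/+ and fl/fl cells. In +/+ cells 21 members rose and 1 fell at an adjusted p under 0.05 (edgeR), where 9.49% of all genes tested rose and 6.5% fell. In fl/+ cells 39 rose and none fell, against 9.72% and 6.58% of all genes. In fl/fl cells 41 rose and 1 fell, against 5.01% and 1.33%. The members' median log2 fold change was 1.38 in +/+, 2.05 in fl/+ and 2.53 in fl/fl, while the median of all genes tested was -0.01 in each. Groups that do not overlap, with effector higher, were found for 21 members in +/+, 44 in fl/+ and 46 in fl/fl, where 16.6%, 18% and 11.7% of all genes did so.

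Members that passed in all 3 genotypes numbered 20, among them Cdk1, all 3 cyclins, Aurkb, Mki67 and Racgap1. Another 17 passed in fl/+ and fl/fl while missing the threshold in +/+, among them Top2a, Stmn1, Ncaph and Cdc20. How many of all genes share these patterns was not counted. Ttk, Spc24 and Hmmr passed in none. Smc4 was the member that fell. The fitted state change, with its sign, was higher in fl/fl than in +/+ for 45 of 47 members, against 5377 of all 10630 genes tested. None of the members' differences passed the interaction test (edgeR).

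Without replicate 3 of the +/+ effector group, 6 members passed in +/+, with a median of 0.67: Cks2, Kif15, Tpx2, Racgap1 and Mki67 rose and Smc4 fell. Of all genes, 944 rose and 645 fell in that fit, against 1009 and 691 with all libraries. The number of members passing in +/+ was then near the background and is no result about the members. Where a gene or role is said below to have risen in every genotype, the +/+ call comes from all 18 libraries. The fitted +/+ changes of 4 members turned below 0 without this library (Bub1, Ttk, Ndc80 and Stmn1), none of which passed in either fit. Leaving out resting replicate 1 or 3 of +/+ gave 13 or 12. Within batches the members' median change in +/+ was 0.80, 0.51 and 2.10, against 1.76, 1.95 and 1.80 in fl/+ and 1.46, 2.77 and 3.06 in fl/fl.

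**Figure D3:**
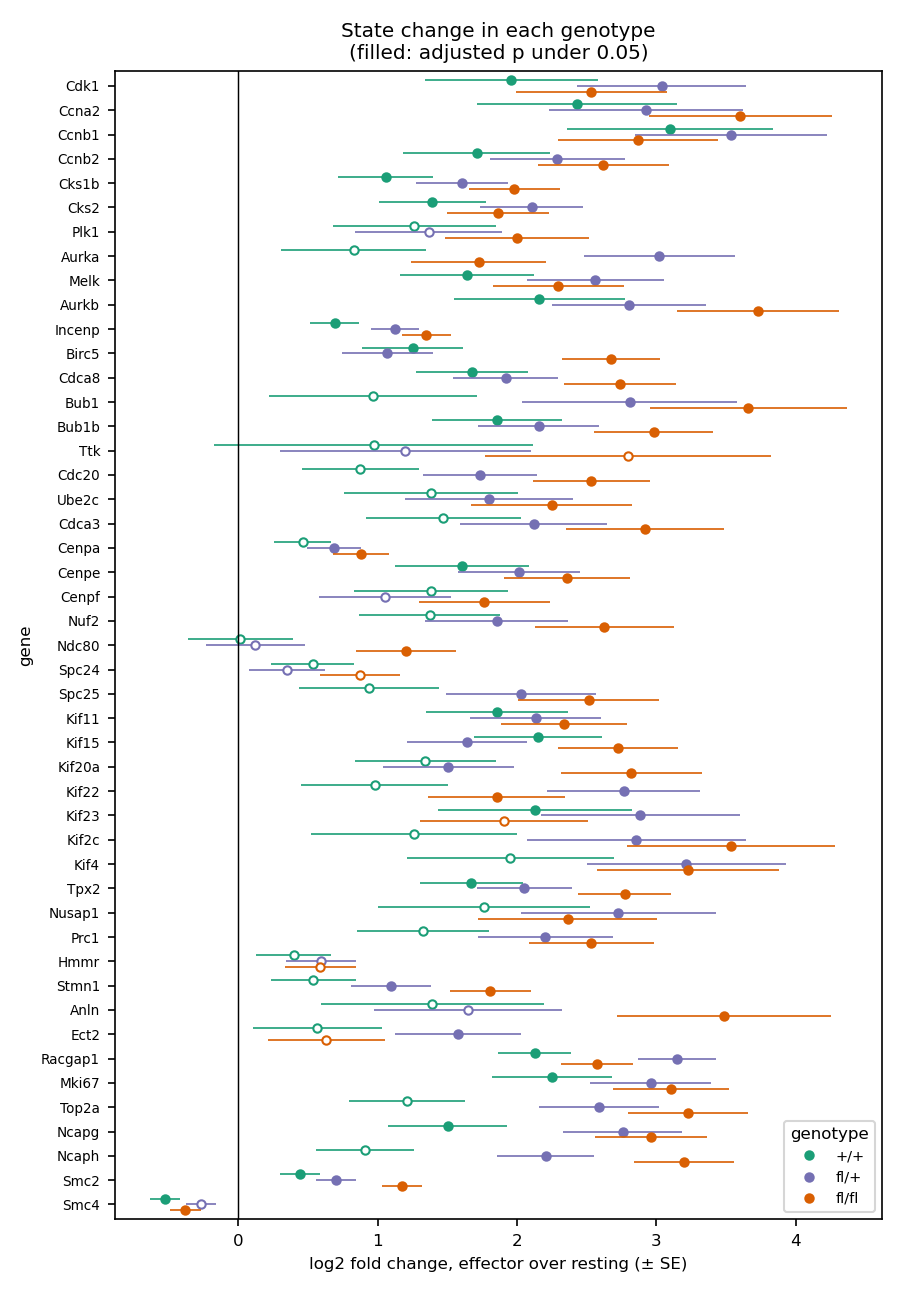
Log2 fold change from resting to effector cells (x axis) with its SE as bars for the 47 members (y axis) in +/+ (green), fl/+ (violet) and fl/fl (orange). Filled points have an adjusted p under 0.05 (21, 39 and 41 higher); Smc4 alone lies below 0 in all 3 genotypes.

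The entry kinase and its cyclins all rose in every genotype. Ccnb1, the B-type cyclin that accumulates until anaphase, showed the largest state change in fl/+ and, with all libraries, in +/+. Resting libraries of Ccnb1 held 1.01, 1.22 and 2.76 CPM in +/+, 1.51, 1.18 and 2.82 in fl/+ and 6.56, 6.86 and 1.48 in fl/fl. Effector libraries of Ccnb1 held 5.7, 4.23 and 31.8 CPM in +/+, 15.1, 21.8 and 25.2 in fl/+ and 24.1, 36.9 and 49.6 in fl/fl. Effector and resting libraries did not overlap in any genotype, and the +/+ effector value of replicate 3 stood far above replicates 1 and 2. Between states Ccnb1 changed on the log2 scale by 3.1 ± 0.74 (SE) in +/+, 3.53 ± 0.69 in fl/+ and 2.87 ± 0.57 in fl/fl (adjusted p = 0.00607, 0.00129 and 0.00481). Without +/+ effector replicate 3 the +/+ change of Ccnb1 was 1.68 ± 0.62 (adjusted p = 0.0798), below that of Racgap1 (2.19) and Mki67 (1.75).

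Ccnb2 is the other B-type cyclin of somatic cells. Ccnb2 in resting cells measured 3.81, 9.32 and 2.76 CPM in +/+, 4.95, 6.3 and 6.57 in fl/+ and 11.6, 4.69 and 3.84 in fl/fl. Ccnb2 in effector cells measured 6.97, 11.6 and 33.3 CPM in +/+, 25.5, 37 and 23.2 in fl/+ and 33.1, 46.3 and 47.8 in fl/fl. In +/+ the groups overlapped, since effector replicate 1 lay under resting replicate 2, and in the other genotypes they did not. Ccnb2 had log2 changes of 1.71 ± 0.53 (SE) in +/+, 2.29 ± 0.49 in fl/+ and 2.62 ± 0.47 in fl/fl (adjusted p = 0.0308, 0.0025 and 0.00229). The +/+ call of Ccnb2 was lost without effector replicate 3 (0.76 ± 0.48, adjusted p = 0.343). Ccna2, cyclin A, works in S phase and at entry to mitosis. In resting cells Ccna2 stood at 1.52, 9.32 and 3.55 CPM in +/+, 1.29, 6.3 and 6.57 in fl/+ and 11, 1.08 and 1.77 in fl/fl. In effector cells Ccna2 stood at 10.3, 15.3 and 47.3 CPM in +/+, 19.7, 42.7 and 32.9 in fl/+ and 38.2, 67.8 and 72.5 in fl/fl. All 3 genotypes were free of overlap, and fl/fl effector cells held the highest library. For Ccna2 the log2 change was 2.43 ± 0.72 (SE) in +/+, 2.92 ± 0.70 in fl/+ and 3.6 ± 0.66 in fl/fl (adjusted p = 0.024, 0.006 and 0.00247). With +/+ effector replicate 3 left out, Ccna2 changed by 1.47 ± 0.72 in +/+ (adjusted p = 0.207) and did not pass. Cdk1 itself rose by 1.96 ± 0.62 in +/+, 3.04 ± 0.61 in fl/+ and 2.53 ± 0.54 in fl/fl. The +/+ call of Cdk1 was lost without effector replicate 3 (1.26 ± 0.64, adjusted p = 0.226).

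Cks1b and Cks2 encode small subunits of cyclin-dependent kinases. Resting libraries of Cks1b held 8.37, 6.89 and 8.29 CPM in +/+, 7.54, 6.69 and 7.98 in fl/+ and 8.65, 6.13 and 7.38 in fl/fl. Effector libraries of Cks1b held 11, 11.1 and 27.7 CPM in +/+, 14.4, 27.4 and 26.6 in fl/+ and 24.5, 31.2 and 33.9 in fl/fl. Replicate 3 of +/+ and the fl/+ and fl/fl effector libraries, fl/+ replicate 1 aside, stood together above the rest. Between states Cks1b changed on the log2 scale by 1.06 ± 0.34 (SE) in +/+, 1.6 ± 0.33 in fl/+ and 1.98 ± 0.33 in fl/fl (adjusted p = 0.0385, 0.00188 and 0.00122). With +/+ effector replicate 3 left out, Cks1b changed by 0.48 ± 0.30 in +/+ (adjusted p = 0.348) and did not pass. Cks2 in resting cells measured 5.58, 7.7 and 2.37 CPM in +/+, 4.95, 3.94 and 4.7 in fl/+ and 9.54, 3.25 and 2.95 in fl/fl. Cks2 in effector cells measured 13.5, 12.7 and 15.2 CPM in +/+, 16.9, 22.3 and 20.6 in fl/+ and 16.4, 25.5 and 16.3 in fl/fl. Here replicate 3 of the +/+ effector group lay close to its partners, and every fl/fl and fl/+ effector library was above every +/+ effector library. Cks2 had log2 changes of 1.39 ± 0.38 (SE) in +/+, 2.11 ± 0.37 in fl/+ and 1.86 ± 0.37 in fl/fl (adjusted p = 0.0151, 0.000536 and 0.00428). Cks2 kept its +/+ call without replicate 3 (adjusted p = 0.042).

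Of the other mitotic kinases, Melk rose in every genotype (in +/+ adjusted p = 0.0716 without effector replicate 3), Plk1, the polo kinase, passed in fl/fl, and Aurka in fl/+ and fl/fl. Aurora A acts at spindle poles and aurora B, in the chromosomal passenger complex, at centromeres. In resting cells Aurka stood at 2.03, 2.03 and 5.92 CPM in +/+, 0.862, 2.36 and 1.41 in fl/+ and 4.17, 3.25 and 2.36 in fl/fl. In effector cells Aurka stood at 3.38, 4.23 and 9.98 CPM in +/+, 9.1, 11.7 and 15.2 in fl/+ and 8.09, 16.4 and 7.86 in fl/fl. In +/+ resting replicate 3 was above effector replicates 1 and 2, and the groups overlapped. For Aurka the log2 change was 0.83 ± 0.52 (SE) in +/+, 3.02 ± 0.54 in fl/+ and 1.72 ± 0.48 in fl/fl (adjusted p = 0.314, 0.000641 and 0.0362). Resting libraries of Aurkb held 2.28, 2.03 and 1.18 CPM in +/+, 2.15, 1.57 and 3.29 in fl/+ and 2.98, 1.08 and 0.59 in fl/fl. Effector libraries of Aurkb held 6.55, 3.17 and 15.5 CPM in +/+, 8.44, 22.8 and 17.7 in fl/+ and 13.7, 20.5 and 32 in fl/fl. No genotype showed overlap between states, and fl/fl effector replicate 3 was the highest library. Between states Aurkb changed on the log2 scale by 2.16 ± 0.61 (SE) in +/+, 2.8 ± 0.55 in fl/+ and 3.73 ± 0.58 in fl/fl (adjusted p = 0.0187, 0.00146 and 0.00073). The +/+ call of Aurkb was lost without effector replicate 3 (1.46 ± 0.62, adjusted p = 0.134). The state change of aurora B in fl/fl was the largest of all members in that genotype.

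All 4 members of the chromosomal passenger complex rose in every genotype. Its scaffold Incenp moved by 0.69 ± 0.17 in +/+, 1.12 ± 0.17 in fl/+ and 1.35 ± 0.18 in fl/fl, and Cdca8, which encodes borealin, moved by 1.68 ± 0.40, 1.92 ± 0.38 and 2.74 ± 0.40. Birc5 encodes survivin, the targeting subunit. Birc5 in resting cells measured 6.6, 10.5 and 9.47 CPM in +/+, 11.6, 16.5 and 13.6 in fl/+ and 8.95, 5.41 and 7.08 in fl/fl. Birc5 in effector cells measured 13.5, 14.8 and 34.4 CPM in +/+, 21.9, 29.8 and 35.6 in fl/+ and 30.1, 56.4 and 55 in fl/fl. Its fl/fl effector libraries of replicates 2 and 3 were above every other library, and fl/fl resting libraries were below every fl/+ resting library. Birc5 had log2 changes of 1.25 ± 0.36 (SE) in +/+, 1.07 ± 0.32 in fl/+ and 2.67 ± 0.35 in fl/fl (adjusted p = 0.0212, 0.0275 and 0.000124). Without +/+ effector replicate 3 none of the 4 passed in +/+: adjusted p was 0.134 for Aurkb, 0.0563 for Incenp, 0.0565 for Cdca8 and 0.198 for Birc5, whose change was 0.69 ± 0.33.

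Of 3 spindle checkpoint genes 1 rose in +/+ and 2 in fl/+ and in fl/fl. Bub1 docks checkpoint proteins on kinetochores, and Bub1b encodes BubR1, a part of the inhibitor that blocks the anaphase-promoting complex. In resting cells Bub1 stood at 2.54, 3.24 and 0.395 CPM in +/+, 0.862, 0.787 and 1.41 in fl/+ and 2.98, 0.722 and 0 in fl/fl. In effector cells Bub1 stood at 1.48, 2.11 and 9.24 CPM in +/+, 5.13, 8.03 and 8.22 in fl/+ and 12.3, 15.4 and 22.4 in fl/fl. Resting and effector values overlapped in +/+ and were apart in fl/+ and fl/fl, and every fl/fl effector library was above every other library. For Bub1 the log2 change was 0.97 ± 0.74 (SE) in +/+, 2.81 ± 0.77 in fl/+ and 3.66 ± 0.71 in fl/fl (adjusted p = 0.425, 0.0157 and 0.00378). Without +/+ effector replicate 3 its +/+ change was -0.30 ± 0.80. Resting libraries of Bub1b held 6.34, 2.84 and 1.97 CPM in +/+, 2.58, 5.51 and 7.98 in fl/+ and 6.86, 3.61 and 3.54 in fl/fl. Effector libraries of Bub1b held 8.87, 11.1 and 24.4 CPM in +/+, 16.6, 25.6 and 24.2 in fl/+ and 27.8, 39.6 and 47.1 in fl/fl. Bub1b was free of overlap in each genotype, and again all fl/fl effector libraries were highest. Between states Bub1b changed on the log2 scale by 1.86 ± 0.47 (SE) in +/+, 2.16 ± 0.43 in fl/+ and 2.98 ± 0.43 in fl/fl (adjusted p = 0.00876, 0.00169 and 0.000333). With +/+ effector replicate 3 left out, Bub1b changed by 1.28 ± 0.47 in +/+ (adjusted p = 0.0774) and did not pass.

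Ttk encodes the checkpoint kinase Mps1. Ttk in resting cells measured 0, 2.03 and 0.79 CPM in +/+, 0.862, 1.97 and 1.88 in fl/+ and 1.19, 0.722 and 0 in fl/fl. Ttk in effector cells measured 0, 0.529 and 4.8 CPM in +/+, 2.15, 3.88 and 4.35 in fl/+ and 2.31, 5.37 and 7.25 in fl/fl. It was at 0 in 3 of 18 libraries, and the states overlapped in +/+ and were apart in fl/+ and fl/fl. Ttk had log2 changes of 0.97 ± 1.15 (SE) in +/+, 1.2 ± 0.90 in fl/+ and 2.8 ± 1.03 in fl/fl (adjusted p = 0.626, 0.418 and 0.123). Mitotic protein destruction was represented by Cdc20, an activator of the anaphase-promoting complex, by its ubiquitin-conjugating enzyme Ube2c, and by Cdca3, a trigger of mitotic entry. None of the 3 passed in +/+ and all 3 passed in fl/+ and fl/fl. Cdc20 changed by 0.88 ± 0.42 in +/+, 1.74 ± 0.41 in fl/+ and 2.53 ± 0.42 in fl/fl.

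Of 7 kinetochore and centromere genes 1 rose in +/+ (Cenpe, adjusted p = 0.0265, and 0.165 without effector replicate 3), 4 in fl/+ and 6 in fl/fl. Cenpa encodes the centromeric histone. In resting cells Cenpa stood at 23.6, 16.6 and 22.9 CPM in +/+, 23.1, 26.8 and 21.1 in fl/+ and 24.2, 23.8 and 19.5 in fl/fl. In effector cells Cenpa stood at 23.4, 35.9 and 30.3 CPM in +/+, 33.3, 43.2 and 38.2 in fl/+ and 32.6, 52 and 40.5 in fl/fl. Effector libraries exceeded resting ones in fl/+ and fl/fl, whereas the +/+ groups overlapped. For Cenpa the log2 change was 0.46 ± 0.21 (SE) in +/+, 0.69 ± 0.19 in fl/+ and 0.88 ± 0.20 in fl/fl (adjusted p = 0.141, 0.0189 and 0.0103). Cenpf, a large protein of the outer kinetochore, was low per length. Resting libraries of Cenpf held 3.3, 2.43 and 1.58 CPM in +/+, 3.66, 5.9 and 5.17 in fl/+ and 4.77, 5.77 and 2.95 in fl/fl. Effector libraries of Cenpf held 2.96, 3.7 and 13.7 CPM in +/+, 6.46, 15.3 and 8.47 in fl/+ and 12.3, 17.1 and 16.9 in fl/fl. Replicate 3 of +/+ effector was the only library of its group above 4 CPM. Between states Cenpf changed on the log2 scale by 1.38 ± 0.55 (SE) in +/+, 1.05 ± 0.47 in fl/+ and 1.77 ± 0.47 in fl/fl (adjusted p = 0.0996, 0.145 and 0.0281).

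Ndc80, Nuf2, Spc24 and Spc25 form the complex that grips microtubules. Ndc80 in resting cells measured 11.9, 10.5 and 7.9 CPM in +/+, 9.05, 14.9 and 8.45 in fl/+ and 11.9, 10.8 and 4.43 in fl/fl. Ndc80 in effector cells measured 8.87, 8.99 and 13.3 CPM in +/+, 9.1, 13.7 and 12.6 in fl/+ and 12.3, 23.5 and 29 in fl/fl. The states overlapped in +/+ and fl/+ and were apart in fl/fl, where replicate 1 exceeded the resting range least. Ndc80 had log2 changes of 0.02 ± 0.37 (SE) in +/+, 0.12 ± 0.35 in fl/+ and 1.2 ± 0.36 in fl/fl (adjusted p = 0.986, 0.865 and 0.0489). In resting cells Spc24 stood at 10.9, 27.1 and 13.8 CPM in +/+, 23.7, 31.1 and 17.4 in fl/+ and 20.3, 11.2 and 21 in fl/fl. In effector cells Spc24 stood at 25.1, 23.8 and 24 CPM in +/+, 29.96, 36.5 and 26.4 in fl/+ and 35.6, 36.2 and 23 in fl/fl. Spc24 states overlapped in +/+ and fl/+, and in fl/fl they were apart. For Spc24 the log2 change was 0.53 ± 0.30 (SE) in +/+, 0.35 ± 0.27 in fl/+ and 0.87 ± 0.28 in fl/fl (adjusted p = 0.252, 0.433 and 0.0761). Nuf2 changed by 1.38 ± 0.50 in +/+, 1.85 ± 0.51 in fl/+ and 2.63 ± 0.50 in fl/fl, and Spc25 by 0.94 ± 0.50, 2.03 ± 0.54 and 2.51 ± 0.51. Nuf2 and Spc25 passed in fl/+ and fl/fl.

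Kinesins are motors that slide and bundle spindle microtubules. All 7 rose in fl/+, 6 in fl/fl and 3 in +/+ (Kif11, Kif15 and Kif23), of which Kif15 passed without +/+ effector replicate 3 (adjusted p = 0.0224) and Kif11 (0.136) and Kif23 (0.292) did not. Kif4, a chromosome-bound motor, had one of the largest changes in fl/+. Resting libraries of Kif4 held 1.01, 0.81 and 1.18 CPM in +/+, 0.646, 0.787 and 0.939 in fl/+ and 2.68, 0.722 and 0 in fl/fl. Effector libraries of Kif4 held 2.32, 1.59 and 8.13 CPM in +/+, 4.96, 10.4 and 7.01 in fl/+ and 8.48, 10.7 and 15.1 in fl/fl. No genotype showed overlap, and resting values were near the limit of counting, with fl/fl replicate 3 at 0. Between states Kif4 changed on the log2 scale by 1.95 ± 0.74 (SE) in +/+, 3.21 ± 0.71 in fl/+ and 3.23 ± 0.65 in fl/fl (adjusted p = 0.0827, 0.0036 and 0.00497). Kif2c, which depolymerises microtubules at centromeres, changed by 1.26 ± 0.74 in +/+, 2.86 ± 0.79 in fl/+ and 3.53 ± 0.75 in fl/fl. Kif20a shares 1271 of its 3999 exon bases with Cdc23 on the opposite strand and Kif4 shares 753 of 4983 with Pdzd11, and since no source used here states the strand setting of the counting, reads in such stretches cannot be told apart.

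Among spindle proteins Tpx2, which activates aurora A and nucleates microtubules, rose in every genotype. Tpx2 in resting cells measured 3.3, 3.65 and 3.95 CPM in +/+, 3.45, 6.3 and 3.29 in fl/+ and 5.07, 5.41 and 2.66 in fl/fl. Tpx2 in effector cells measured 10.6, 7.4 and 16.3 CPM in +/+, 14.9, 19.7 and 19.1 in fl/+ and 21.2, 29.5 and 41.1 in fl/fl. Every effector library was above every resting library, and the 3 fl/fl effector libraries were the 3 highest. Tpx2 had log2 changes of 1.67 ± 0.37 (SE) in +/+, 2.05 ± 0.34 in fl/+ and 2.77 ± 0.34 in fl/fl (adjusted p = 0.0035, 0.000316 and 7.46e-05). Stmn1 encodes stathmin, which destabilises microtubules and is the most abundant member per length after Smc4. In resting cells Stmn1 stood at 21.3, 21.1 and 19.7 CPM in +/+, 18.3, 28.7 and 14.6 in fl/+ and 23.9, 19.8 and 15.1 in fl/fl. In effector cells Stmn1 stood at 18.8, 21.1 and 51.4 CPM in +/+, 34.8, 47.1 and 50.3 in fl/+ and 66.7, 71.1 and 68.3 in fl/fl. Replicates 1 and 2 of +/+ effector did not exceed the highest +/+ resting library, replicate 3 was just above the fl/+ range, and fl/fl libraries were highest without overlap. For Stmn1 the log2 change was 0.54 ± 0.30 (SE) in +/+, 1.1 ± 0.29 in fl/+ and 1.81 ± 0.29 in fl/fl (adjusted p = 0.26, 0.0119 and 0.000891). Without +/+ effector replicate 3 its +/+ change was -0.07 ± 0.25.

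Hmmr encodes a spindle protein that is also known as a hyaluronan receptor. Resting libraries of Hmmr held 11.2, 17 and 20.5 CPM in +/+, 12.5, 22.4 and 18.3 in fl/+ and 17, 18 and 17.1 in fl/fl. Effector libraries of Hmmr held 16.9, 18 and 28.5 CPM in +/+, 25, 30.3 and 23.5 in fl/+ and 24.7, 32.9 and 19.9 in fl/fl. Effector and resting libraries overlapped in +/+ and were apart in fl/+ and fl/fl by small margins. Between states Hmmr changed on the log2 scale by 0.4 ± 0.27 (SE) in +/+, 0.6 ± 0.25 in fl/+ and 0.59 ± 0.26 in fl/fl (adjusted p = 0.35, 0.119 and 0.205). Prc1, which bundles midzone microtubules, changed by 1.33 ± 0.47 in +/+, 2.20 ± 0.48 in fl/+ and 2.53 ± 0.45 in fl/fl, and Nusap1 by 1.76 ± 0.76, 2.73 ± 0.70 and 2.36 ± 0.64.

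In cytokinesis Racgap1, a subunit of centralspindlin, rose in every genotype. Racgap1 in resting cells measured 8.62, 10.5 and 7.11 CPM in +/+, 4.09, 5.51 and 6.57 in fl/+ and 12.2, 8.3 and 4.13 in fl/fl. Racgap1 in effector cells measured 39.7, 40.7 and 34.4 CPM in +/+, 41, 52.6 and 44.5 in fl/+ and 40.7, 46.6 and 62.9 in fl/fl. All 9 effector libraries lay between 34.4 and 62.9 CPM and all 9 resting libraries at or under 12.2 CPM. Racgap1 had log2 changes of 2.13 ± 0.26 (SE) in +/+, 3.15 ± 0.28 in fl/+ and 2.57 ± 0.26 in fl/fl (adjusted p = 2.35e-05, 1.62e-06 and 1.46e-05). Without replicate 3 of +/+ effector its +/+ change was 2.19 ± 0.29. Ect2 is the exchange factor that Racgap1 recruits to start the contractile ring. In resting cells Ect2 stood at 2.54, 6.48 and 5.92 CPM in +/+, 5.38, 0.787 and 2.82 in fl/+ and 8.35, 5.05 and 7.08 in fl/fl. In effector cells Ect2 stood at 5.07, 5.81 and 10.7 CPM in +/+, 8.28, 8.54 and 13.1 in fl/+ and 9.63, 10.7 and 12.1 in fl/fl. Resting values scattered, and in fl/+ the second library was lowest. For Ect2 the log2 change was 0.57 ± 0.46 (SE) in +/+, 1.58 ± 0.45 in fl/+ and 0.63 ± 0.42 in fl/fl (adjusted p = 0.457, 0.0196 and 0.452).

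Anln encodes anillin, a scaffold of the contractile ring, and was the lowest member per length. Resting libraries of Anln held 0.254, 1.62 and 1.58 CPM in +/+, 2.8, 0.394 and 0.47 in fl/+ and 0.596, 0 and 1.18 in fl/fl. Effector libraries of Anln held 2.11, 0.529 and 5.54 CPM in +/+, 3.31, 5.7 and 5.32 in fl/+ and 7.71, 7.04 and 7.25 in fl/fl. The fl/fl effector libraries were alike and above all others, while +/+ effector replicate 2 lay within the +/+ resting range and replicate 3 was highest of its group. Between states Anln changed on the log2 scale by 1.39 ± 0.80 (SE) in +/+, 1.65 ± 0.67 in fl/+ and 3.48 ± 0.77 in fl/fl (adjusted p = 0.268, 0.106 and 0.00929).

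Chromosome structure genes included the member that fell. Mki67 encodes Ki-67, a coat of mitotic chromosomes and the usual stain for cycling cells. Mki67 in resting cells measured 9.64, 10.1 and 6.32 CPM in +/+, 5.38, 8.66 and 7.51 in fl/+ and 17.6, 4.69 and 2.66 in fl/fl. Mki67 in effector cells measured 34.6, 22.7 and 67.3 CPM in +/+, 42.5, 62.1 and 58 in fl/+ and 79, 70.5 and 67.7 in fl/fl. No genotype overlapped, and fl/fl resting replicate 1 was the highest resting library. Mki67 had log2 changes of 2.25 ± 0.43 (SE) in +/+, 2.96 ± 0.43 in fl/+ and 3.1 ± 0.42 in fl/fl (adjusted p = 0.00107, 0.000104 and 0.000167). Without replicate 3 the +/+ change of Mki67 was 1.75 ± 0.42 (adjusted p = 0.00674). Top2a, the topoisomerase that untangles chromatids, changed by 1.21 ± 0.41 in +/+ (adjusted p = 0.0529, and 0.0458 with replicate as a block), 2.59 ± 0.43 in fl/+ and 3.23 ± 0.43 in fl/fl.

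Ncapg and Ncaph belong to condensin I. In resting cells Ncapg stood at 3.55, 4.05 and 3.55 CPM in +/+, 3.23, 1.57 and 1.88 in fl/+ and 6.56, 1.8 and 1.48 in fl/fl. In effector cells Ncapg stood at 7.39, 10.6 and 14.4 CPM in +/+, 13.6, 16.6 and 19.4 in fl/+ and 19.7, 33.2 and 26.6 in fl/fl. Effector libraries were above resting ones in each genotype, and the fl/fl effector libraries were highest. For Ncapg the log2 change was 1.5 ± 0.43 (SE) in +/+, 2.76 ± 0.43 in fl/+ and 2.96 ± 0.40 in fl/fl (adjusted p = 0.0188, 0.000173 and 0.000174). The +/+ call of Ncapg was lost without effector replicate 3 (1.22 ± 0.46, adjusted p = 0.0911). Resting libraries of Ncaph held 5.33, 6.89 and 6.71 CPM in +/+, 4.31, 3.94 and 4.23 in fl/+ and 3.58, 1.44 and 3.84 in fl/fl. Effector libraries of Ncaph held 9.72, 5.81 and 19.2 CPM in +/+, 16.6, 23.3 and 18.6 in fl/+ and 26.4, 33.5 and 23.6 in fl/fl. In +/+ effector replicate 2 lay within the resting range, while fl/+ and fl/fl were free of overlap and the lowest resting value was in fl/fl. Between states Ncaph changed on the log2 scale by 0.91 ± 0.35 (SE) in +/+, 2.21 ± 0.35 in fl/+ and 3.2 ± 0.36 in fl/fl (adjusted p = 0.0849, 0.000202 and 6.3e-05). Ncapg shares 769 of 3703 exon bases with Lcorl on the opposite strand.

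The core ATPases of condensin are Smc2 and Smc4, which pair with each other. Smc2 rose by 0.45 ± 0.14 in +/+, 0.70 ± 0.14 in fl/+ and 1.17 ± 0.14 in fl/fl. With +/+ effector replicate 3 left out, Smc2 changed by 0.45 ± 0.17 in +/+ (adjusted p = 0.0774) and did not pass. Smc4 in resting cells measured 695, 716 and 790.4 CPM in +/+, 765, 759.9 and 727 in fl/+ and 705, 795 and 721 in fl/fl. Smc4 in effector cells measured 501, 445 and 582 CPM in +/+, 642, 610.0 and 623 in fl/+ and 482, 672 and 556 in fl/fl. Every effector library of Smc4 was below every resting library of its genotype. Smc4 had log2 changes of -0.53 ± 0.11 (SE) in +/+, -0.26 ± 0.11 in fl/+ and -0.38 ± 0.11 in fl/fl (adjusted p = 0.00214, 0.106 and 0.0425). The fall of Smc4 in fl/fl was near the threshold and did not pass with limma on FPKM, with only the groups compared, or without +/+ resting replicate 2, +/+ effector replicate 1, any 1 of the fl/+ libraries, any 1 of the fl/fl resting libraries or fl/fl effector replicate 1 or 3.

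**Figure D4:**
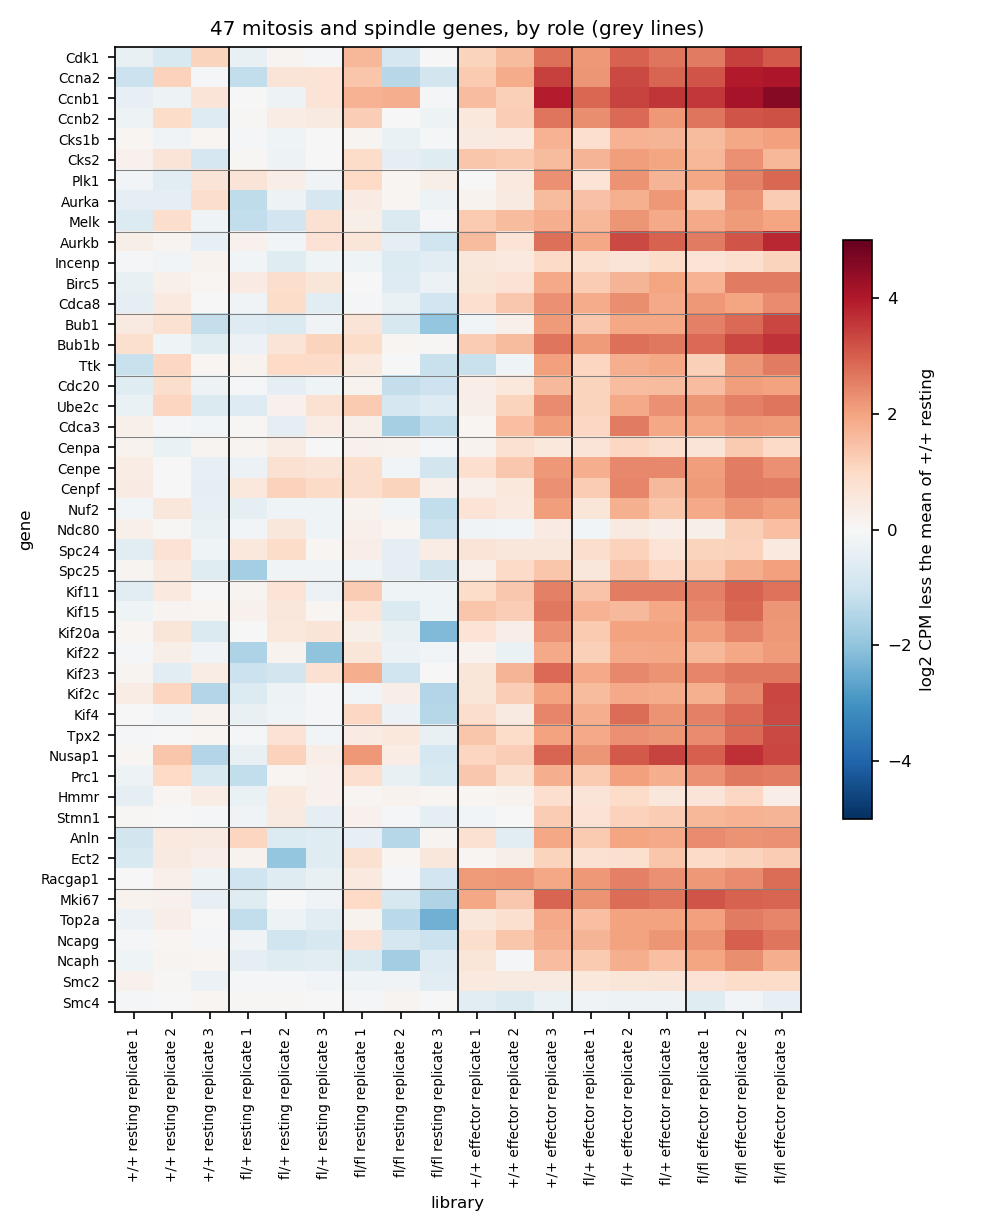
Heat map of log2 CPM less the mean of the +/+ resting libraries, for 47 members (rows, in role order) and 18 libraries (columns, grouped by state and genotype). Red is higher and blue lower, and effector columns are red in most rows, palest in +/+ replicates 1 and 2. The Smc4 row is faintly blue in effector columns and near white in resting ones.

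Effector cells of fl/fl were compared with those of +/+, which asks whether the mitotic genes differ between these genotypes in cells labelled effector. Markers of the resting and effector states differed between these groups too, as given below. Of 47 members 5 were higher in fl/fl at an adjusted p under 0.05 (edgeR) and none lower, where 1.17% of all genes tested were higher. All 47 fitted changes were above 0, with a median log2 of 1.01, while the median of all genes was 0.01. At an unadjusted p under 0.05, 29 members were higher, against 8.72% of all genes. Groups without overlap were found for 15 members, against 10.3% of all genes. The summed CPM without Smc4 was 1.89 times as high in fl/fl as in +/+.

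The 5 members were Tpx2 (1.37 ± 0.30, adjusted p = 0.0189), Stmn1 (1.19 ± 0.28, adjusted p = 0.0289), Ncaph (1.25 ± 0.31, adjusted p = 0.0338), Ncapg (1.31 ± 0.35, adjusted p = 0.0493) and Birc5 (1.16 ± 0.31, adjusted p = 0.0498), all by edgeR. In mm10 coordinates of GENCODE M21 they lie at chr2:152847964-152895321, chr4:134468320-134473843, chr2:127103809-127133954, chr5:45669919-45700546 and chr11:117849251-117855743. Tpx2, Stmn1, Ncaph and Ncapg showed no overlap between the 2 groups. For Birc5, +/+ effector replicate 3 was above fl/fl effector replicate 1. Bub1b (1.36 ± 0.38, adjusted p = 0.056), Bub1 (1.97 ± 0.61, adjusted p = 0.0836) and Top2a (1.19 ± 0.37, adjusted p = 0.0863) missed the threshold. With replicate as a block Bub1b (adjusted p = 0.02635) and Ccnb1 (adjusted p = 0.04997) also passed.

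By role the median of this log2 difference was highest for the 3 checkpoint genes (1.47) and the 6 genes of Cdk1 and its cyclins (1.21), and lowest for the 3 cytokinesis genes (0.58). Kinesins had a median of 1.01 and kinetochore and centromere genes 0.85. Racgap1 differed by 0.36 ± 0.22, adjusted p = 0.449. Smc4 differed by 0.16 ± 0.11, adjusted p = 0.508.

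The count of members changed with single libraries. Without +/+ effector replicate 3, 24 members passed and the median was 1.60, while the number of all genes called higher went from 124 to 263. Ccnb1 then differed by 2.79 ± 0.46 (adjusted p = 0.00204) and Plk1 by 2.37 ± 0.49 (adjusted p = 0.00782). No member passed when +/+ effector replicate 1 or 2 or fl/fl effector replicate 2 or 3 was left out, or when these 2 groups alone were fitted. Within batches the median difference was 1.25, 1.65 and 0.35, with 46, 47 and 39 members above 0.

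**Figure D5:**
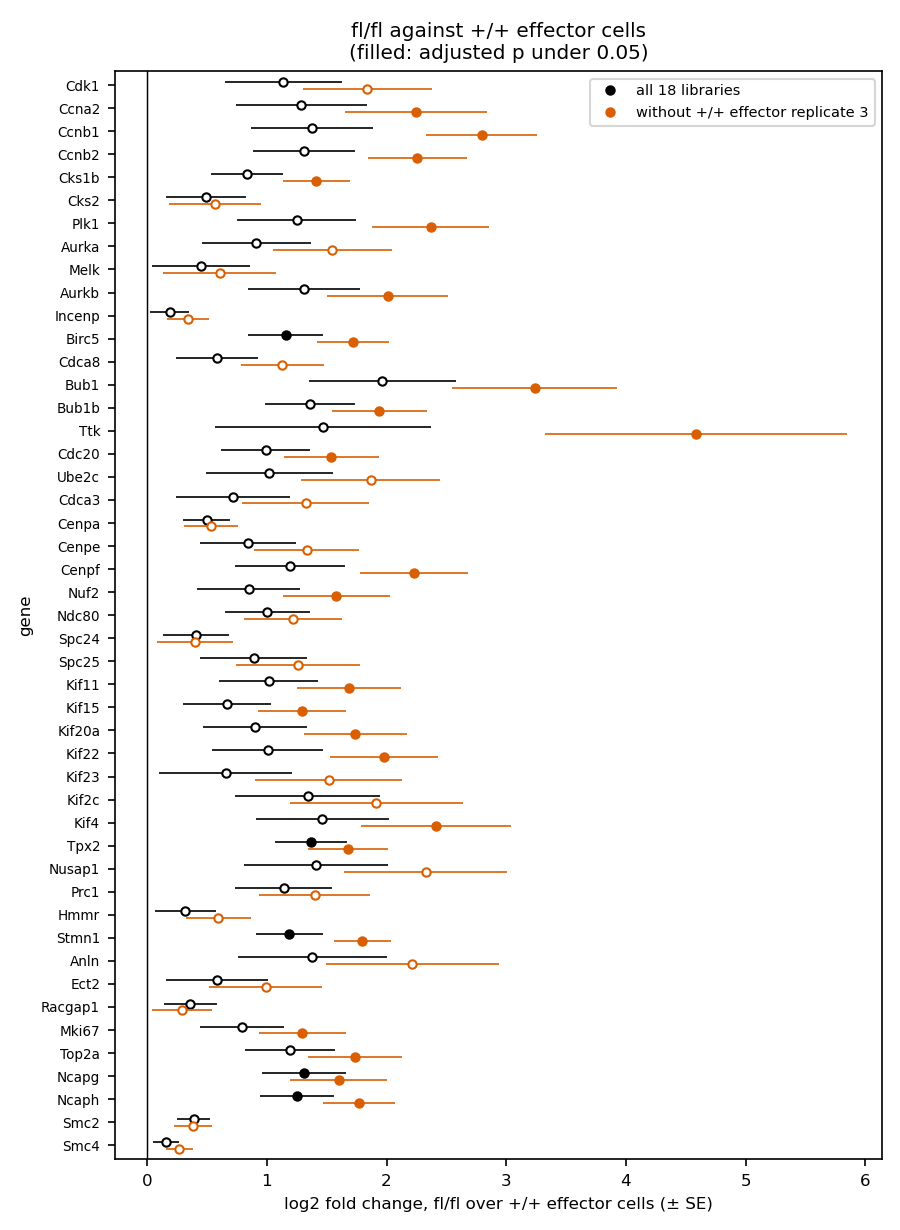
Log2 fold change of fl/fl over +/+ effector cells (x axis) with its SE as bars for the 47 members (y axis), fitted on all 18 libraries (black) and without +/+ effector replicate 3 (orange). Filled points have an adjusted p under 0.05, 5 of 47 in the first fit and 24 in the second. Of all genes tested, 124 were higher in the first fit and 263 in the second.

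State markers also differed between these libraries. The summed CPM of 7 effector markers of regulatory T cells (such as Icos, Prdm1 and Il10) was 1703, 1685 and 921 in the +/+ effector libraries, 861, 776 and 1110.0 in fl/+ and 777, 209.5 and 338 in fl/fl. The sum of 6 resting markers (such as Ccr7, Lef1 and Satb1) was 1221, 1126 and 1854 in +/+, 1536, 1890.0 and 1352 in fl/+ and 2077, 2818 and 2883 in fl/fl effector libraries. Between fl/fl and +/+ effector cells 4 of 7 effector markers were lower and 5 of 6 resting markers higher at an adjusted p under 0.05. Of all 10630 genes, 175 were lower and 124 higher. Replicate 3 of +/+ effector, highest in mitosis genes, was lowest of its group in effector markers and highest in resting ones. In fl/fl effector, replicate 1 was lowest in the sum of mitosis genes and highest in effector markers. In fl/+ effector, replicate 2 was highest in mitosis genes and lowest in effector markers, but replicate 1, lowest in mitosis genes, lay between the others in effector markers. The fl/fl resting libraries went the other way: replicate 1 was highest in mitosis genes and in effector markers (183, 73.6 and 67.9 CPM). The part of these markers in the results was not tested.

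Marker lists of other cell types were read in the same libraries, and their part in the results was not tested. The B cell sum of 8 markers ran from 10.4 to 93.9 CPM over all libraries and from 12.7 to 52.1 in effector libraries. The sum for CD4 CD8 double-positive thymocytes ran from 13.6 to 25.1 CPM in effector and from 26.0 to 38.1 in resting libraries. It was carried by Cd8b1 (mean 18.05 CPM), which is also in the CD8 and NK list, while Rag1 and Rag2 averaged 0.084 and 0.16 CPM. Myeloid sums were 64.0 to 69.3 CPM in +/+ resting and 94.3 to 103 in +/+ effector libraries, carried by Cst3, while Cd14 was at 0 in 16 of 18 libraries. Plasma cell sums ran from 84.8 to 134 CPM, carried by Xbp1 (mean 108.7 CPM), while Igj averaged 2.27 and Sdc1 0.785 CPM. Sums of CD8 and NK cells ran from 16.1 to 29.1 in 16 libraries, with 40.4 in fl/fl resting replicate 1 and 47.8 in fl/fl effector replicate 1. Erythroid sums reached 1.93 CPM at most, and Hba-a2, Hbb-b1 and the plasma cell gene Tnfrsf17 were at 0 in all 18.

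The heterozygous effector cells were compared with both other genotypes. Against +/+ no member passed in fl/+ effector cells (edgeR; DESeq2 gave 0), where 0.00941% of all genes did. At an unadjusted p under 0.05, 3 members were higher (Aurka, Ncaph and Smc4), against 2.89% of all genes, the median log2 was 0.49, and 5 members showed no overlap, against 5.8% of all genes. Between fl/fl and fl/+ effector cells no member passed either (DESeq2 gave 0), where 0.677% of all genes did. There 7 members were higher at an unadjusted p under 0.05 (Birc5, Bub1, Bub1b, Ndc80, Kif15, Tpx2 and Stmn1), against 5.55% of all genes, the median was 0.48, and 15 showed no overlap, against 7.88%. limma on FPKM called none in either comparison. Within batches the median of fl/+ against +/+ was 0.71, 1.17 and -0.05, with 45, 47 and 19 of 47 members above 0, and that of fl/fl against fl/+ was 0.56, 0.39 and 0.43. The comparisons share libraries with that of fl/fl and +/+ effector cells.

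In resting cells no member passed in any comparison of genotypes. The adjusted threshold was passed by 0.696% of all genes between fl/fl and +/+, 0.0847% between fl/+ and +/+ and 0.0282% between fl/fl and fl/+ (edgeR; for the members DESeq2 gave 0, 0 and 0). At an unadjusted p under 0.05 Incenp, Ncaph and Smc2 were lower in fl/fl than in +/+ and none higher, where 3.5% of all genes were lower and 4.71% higher. Racgap1 was lower in fl/+ than in +/+, where 2.45% of all genes were lower and 3.85% higher. Birc5 was lower and Ect2 higher in fl/fl than in fl/+, where 2.59% were lower and 2.24% higher. The members' medians were -0.06, -0.07 and 0.02 on the log2 scale. Within batches the median between fl/fl and +/+ was 0.54, -0.70 and -0.38, so batch 1, with the high fl/fl resting library, went the other way.

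Whether the state change itself differed between genotypes was tested by interaction. For fl/fl less +/+ no member passed, and 0% of all genes did (edgeR; DESeq2 called 1 member). The median interaction of members was 0.91 on the log2 scale, and 12 were higher at an unadjusted p under 0.05, against 4.36% of all genes. Ncaph had the lowest p (2.29 ± 0.51, adjusted p = 0.263), followed by Smc2 (0.73 ± 0.20, adjusted p = 0.344) and Top2a (2.02 ± 0.60, adjusted p = 0.351). Without +/+ effector replicate 3, Stmn1 and Ncaph passed. For fl/+ less +/+ the median was 0.55, 5 members were higher at an unadjusted p under 0.05 against 1.69% of all genes, and no member passed, where 0.0188% of all genes did (DESeq2 gave 0). For fl/fl less fl/+ the median was 0.47, 3 members were higher unadjusted (Birc5, Ndc80 and Smc2) against 2.85% of all genes, and no member passed, where 0.00941% of all genes did (DESeq2 gave 0).

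Other genes of mitosis, in 9 lists of the same processes, numbered 148 tested genes. Of these, 13 rose and 6 fell in +/+, 39 and 4 in fl/+, and 47 and none in fl/fl. All genes tested rose and fell in 9.49% and 6.5% of cases in +/+, 9.72% and 6.58% in fl/+, and 5.01% and 1.33% in fl/fl, so the +/+ counts are near the background and no result about these genes. Between fl/fl and +/+ effector cells none passed (edgeR), with a median log2 of 0.24. At an unadjusted p under 0.05, 34 were higher and 3 lower, where 927 of all 10630 genes were higher and 907 lower. In fl/fl the spindle, kinesin and cytokinesis list had the largest share, with 14 of 25 rising, such as Cep55 (4.35 ± 0.82), Shcbp1 (3.66 ± 0.81), Knstrn (1.27 ± 0.34) and Nde1 (0.43 ± 0.12). Of 32 other kinetochore and centromere genes 10 rose, among them Cenpi, given no fold for the few counts in fl/fl resting cells, Oip5 (3.21 ± 0.78) and Cenph (2.24 ± 0.45).

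Of 17 subunits and regulators of the anaphase-promoting complex, 1 rose in fl/fl, its inhibitor Fbxo5 (1.11 ± 0.28), a share near the 5.01% of all genes. Of 15 cohesin genes 3 rose in fl/fl, separase Espl1 (3.09 ± 0.72), Esco2 (2.78 ± 0.65) and sororin Cdca5 (2.70 ± 0.53), which act in dividing cells, and the list's median was -0.06. Condensin genes outside the 47 gave Ncapg2 (3.05 ± 0.43) and Ncapd2 (1.29 ± 0.20) as the risers in fl/fl, and Ncapd3 fell in +/+ (-0.57 ± 0.14). In the centriole list Nek2 (3.43 ± 0.73), Stil (2.6 ± 0.73) and Plk4 (1.17 ± 0.29) rose in fl/fl, 3 of 18.

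In fl/fl 6 of 21 transcription regulators rose, among them the repressor E2f7 (2.91 ± 0.79), Foxm1 (2.76 ± 0.68), the activator of late cell cycle genes, E2f3 (1.37 ± 0.36) and Tfdp1 (1.07 ± 0.18). Of 11 entry kinases and phosphatases 6 rose in fl/fl, including Cdc25c (3.35 ± 0.73), Cdkn3 (3.23 ± 0.85), Wee1 (2.53 ± 0.61), which restrains Cdk1, and Cdc25b (0.79 ± 0.17). Checkpoint genes outside the 47 gave Trip13 (2.71 ± 0.64) and Mad2l1 (1.54 ± 0.27) as risers, 2 of 5.

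Genes of DNA replication and S phase were read beside the mitosis genes. Of 45, 13 rose in +/+, 26 in fl/+ and 29 in fl/fl, with medians of 0.54, 0.84 and 1.09, where 9.49%, 9.72% and 5.01% of all genes rose. The highest in fl/fl were Mcm10, given no fold because it was almost uncounted in fl/fl resting cells, and Chaf1a (3.30 ± 0.41), and the lowest that passed were Mcm4 (0.58 ± 0.13) and Mcm2 (0.61 ± 0.12). Between fl/fl and +/+ effector cells 4 were higher, Pole (1.00 ± 0.25), Uhrf1 (0.86 ± 0.20), Mcm2 (0.56 ± 0.12) and Dnmt1 (0.46 ± 0.11), with a median of 0.49, where 1.17% of all genes were higher.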

How the data were processed

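RNA of sorted mouse regulatory T cells was sequenced in 18 libraries. The authors deposited RSEM expected counts per gene and the matching FPKM values. Per the submitters' processing notes they used bcl2fastq 2.17.1.14, STAR 2.6.0, RSEM 1.2.8 and mm10, and for annotation, strand setting and filters: not given in the sources used here. Of nonzero expected counts deposited, 29.4% were not whole, and all were rounded. Rn45s took 10.9% to 16.4% of each library. Counts were tested with edgeR 4.0.16 in R 4.3.3 (quasi-likelihood, TMM scaling, filterByExpr by group, 1 coefficient per group over all 18 libraries) with Benjamini-Hochberg adjustment over 10630 genes and a threshold of 0.05. DESeq2 1.42.0 and limma 3.58.1 on log2(FPKM + 1) or log2(FPKM + 0.1) were alternatives. The tests were tried on simulated data. The number 1 to 3 is called a batch in the labels, so it was used as a block in an alternative fit. Same-numbered libraries deviated together within a genotype (mean r = 0.207, above 0.1 in 9 of 9 pairs) but less across genotypes (mean r = 0.0666, above 0.1 in 12 of 36 pairs), and the block, shared by the genotypes, does not model the former apart. Any member could be named by its role; members called between genotypes, the 3 largest and 3 smallest state changes, the highest and lowest mean FPKM and 4 paralogue pairs are given by library, and lists are represented by their 2 highest and 2 lowest called genes. Members and lists were chosen with earlier results of these data known. The check of the targeted gene and a few genes of the lists are not reported here.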

Additional observations from a re-analysis of the deposited data

How the results depend on the processing

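Counts of members passing are given here, and none of the members that passed turned its direction in any alternative run; among members that did not pass, some did. Of members that passed, 5 of 22 in +/+, 25 of 39 in fl/+ and 31 of 42 in fl/fl passed the state test in every alternative, and 0 of 5 did between fl/fl and +/+ effector cells. In +/+ the state change gave 22 members, and 6 to 26 when single replicates were left out. Between fl/fl and +/+ effector cells the 5 members became 3 with DESeq2 size factors, 26 with no filter on low counts, 8 with log2(FPKM + 1), 1 with log2(FPKM + 0.1), 0 with only the groups compared, and 0 to 24 when single replicates were left out. The number of all genes called higher there was 124 in the main fit, 384 with no filter and 263 without +/+ effector replicate 3. With no filter on low counts, 2 members passed between fl/fl and +/+ and 1 between fl/+ and +/+ in resting cells, 1 between fl/+ and +/+ and 3 between fl/fl and fl/+ in effector cells, and 7, 1 and 1 in the interactions fl/fl less +/+, fl/+ less +/+ and fl/fl less fl/+. The interaction fl/fl less +/+ gave 1 with DESeq2 and 0 to 2 when single replicates were left out. Leaving out +/+ effector replicate 3 together with the replicate block, an alternative chosen after seeing the data, gave 8 for the +/+ state change, 26 for fl/fl against +/+ and 1 for fl/+ against +/+ in effector cells, and 4 for the interaction fl/fl less +/+. The cause of these differences was not tested. The replicate block alone gave 7 members between fl/fl and +/+ effector cells, added Top2a to the +/+ state change (adjusted p = 0.0458, edgeR), and changed no other member's call. Members under about 10 counts in resting libraries, such as Kif4 and Ttk, have wide errors at this depth.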

Other observations

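Cell cycle inhibitors and quiescence genes gave values outside the comparisons above. Cdkn2c, an inhibitor of Cdk4 and Cdk6, rose from resting to effector cells in each genotype (log2 1.74 in +/+, 2.90 in fl/+ and 2.28 in fl/fl, edgeR adjusted p under the threshold), beside the mitosis genes. Klf2, a factor of quiescent T cells, fell in +/+ (-1.97) and fl/+ (-2.13), and its value in fl/fl was -0.79, which did not pass. Between fl/fl and +/+ effector cells Klf2 (1.69, adjusted p = 0.0238) and Cdkn2d (0.88, adjusted p = 0.0315) were higher in fl/fl.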
